A study of Mus musculus with 12 samples.

Results

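Alpha-1-antitrypsin is a secreted serine protease inhibitor of the serpin superfamily, and in mice it is encoded by a small group of related genes, Serpina1a to Serpina1f, that lie next to each other on chromosome 12. These are 6 of the 16593 named genes on the array, and 8 of its 25697 probes are annotated to them. The probes were taken by symbol alone, every probe annotated as Serpina1a, Serpina1b, Serpina1c, Serpina1d, Serpina1e or Serpina1f, but the family itself was selected on its measured levels over the 4 stages of the cycle in these same arrays. All levels and stage differences of the family are therefore given as a description, without tests. There are 2 probes for Serpina1a, 2 for Serpina1b and 1 for each of the others, and 6 of the 8 passed the detection filter.

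The samples were oviducts of 6-week-old mice of the outbred ICR stock, 12 arrays in all, 3 for each of the stages proestrus, estrus, metestrus and diestrus, and the labels name no genetic change or treatment. Labelled RNA from the organ was read on Illumina bead arrays with 1 colour, which report for each probe an intensity in arbitrary scanner units and a detection p-value against the negative control beads of that array. The labels do not say whether the 3 arrays of a stage were separate animals, pools or repeated hybridisations, so the spread between them may be technical. Replicate 1 arrays were brighter at every stage, with median raw intensities of 139.4 to 156.3 against 99.25 to 104.7 on the other arrays, and a larger share of probes was detected on them. Levels below are log2 values after background correction and quantile normalization, differences are between stage means with the standard error (SE) of the fit, and n = 3 arrays per stage throughout. The whole organ was measured, so fewer cells of a type and less RNA per cell cannot be told apart.

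Alpha-1-antitrypsin is best known as a plasma protein made by hepatocytes, where it inhibits neutrophil elastase by trapping the protease in a covalent complex that is then cleared by receptors of the LDL receptor family. Epithelial cells and macrophages outside the liver also make it. In humans a single gene, SERPINA1, encodes it, whereas in mice the copies differ mostly in the loop that proteases attack. Transcription in liver depends on a proximal promoter bound by HNF1 factors.

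The promoter sequences of the copies in the reference genome were compared. The windows of 250 bases before the annotated start of the copies detected on every array, Serpina1b and Serpina1d, are printed with those of the copies that were not detected, Serpina1e and Serpina1f. They lie on the minus strand of chromosome 12 at chr12:103738190-103738439 for Serpina1b, chr12:103773634-103773883 for Serpina1d, chr12:103956898-103957147 for Serpina1e and chr12:103695530-103695779 for Serpina1f (RefSeq, GRCm38.p6), and are written 5′ to 3′ with the letters of an HNF1 half-site, GTTAAT, in capitals.
Serpina1b: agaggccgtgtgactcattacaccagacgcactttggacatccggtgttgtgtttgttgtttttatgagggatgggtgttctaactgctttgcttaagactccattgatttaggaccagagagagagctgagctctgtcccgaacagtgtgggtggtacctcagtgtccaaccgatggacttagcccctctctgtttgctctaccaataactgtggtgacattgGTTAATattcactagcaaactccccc
Serpina1d: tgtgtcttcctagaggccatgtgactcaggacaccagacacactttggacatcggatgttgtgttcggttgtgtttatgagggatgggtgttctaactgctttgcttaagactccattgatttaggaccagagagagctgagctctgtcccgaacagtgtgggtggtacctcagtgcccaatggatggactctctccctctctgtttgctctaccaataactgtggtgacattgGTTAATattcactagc
Serpina1e: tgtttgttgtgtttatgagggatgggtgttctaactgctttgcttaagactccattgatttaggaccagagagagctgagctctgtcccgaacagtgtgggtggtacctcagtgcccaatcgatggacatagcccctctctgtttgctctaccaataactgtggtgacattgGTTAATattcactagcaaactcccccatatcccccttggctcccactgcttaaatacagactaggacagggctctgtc
Serpina1f: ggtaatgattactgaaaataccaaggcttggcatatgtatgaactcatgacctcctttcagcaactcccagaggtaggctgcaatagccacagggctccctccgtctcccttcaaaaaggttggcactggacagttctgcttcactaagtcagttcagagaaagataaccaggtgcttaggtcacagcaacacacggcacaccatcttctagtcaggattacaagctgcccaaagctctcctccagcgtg

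All 6 genes had a promoter entry, which holds the printed window and also bases past the annotated start. The entries of Serpina1a to Serpina1e were 91.7% to 98.4% identical in pairs over their aligned bases. Serpina1b and Serpina1d matched at 94.1% of 288 aligned bases, and Serpina1b and Serpina1e at 98.4% of 248. A run of 59 bases was shared letter for letter by the entries of Serpina1a to Serpina1e and was absent from that of Serpina1f. In Serpina1d the run continued past the start, so the window printed above holds only part of it. GTTAAT, searched on both strands, lay inside that run and occurred once upstream of each of these 5 genes, 16 bases before the start in Serpina1d, 26 in Serpina1b and 78 in Serpina1e. It was not found in the Serpina1f window, and 6.43% of 32851 promoter windows of the same length held it.

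The steroid receptor half-site TGTTCT, searched on both strands and overlapping no GTTAAT, also occurred once in each window from Serpina1a to Serpina1e and not in that of Serpina1f. Of all windows, 16.1% held it. The palindromic estrogen response element was found in none of the 6 windows and in 0.0639% of all windows. These matches describe the letters of the windows and are not evidence that a factor binds there. In gene order, Serpina1f comes first, then Serpina1b, Serpina1d, Serpina1a, Serpina1c and Serpina1e, with Serpina10, Serpina6 and Serpina16 on one side and Serpina11, Serpina9 and Serpina12 on the other.

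Serpina1b and Serpina1d were detected on every array, were lowest at proestrus and highest at metestrus, and differed about as much between these stages on each of their 3 probes. The Serpina1b probe ILMN_1215859 read 311.5, 194.7 and 191.1 raw intensity units at proestrus in replicates 1, 2 and 3, and 597.5, 290.8 and 289.8 at estrus. It read 1432, 708.8 and 708.1 at metestrus, and 914.6, 463.4 and 553.2 at diestrus. Within each replicate number the order was proestrus, estrus, diestrus, metestrus, and replicate 1 was the brightest array of every stage.

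After normalization this probe had a mean log2 level of 7.41 ± 0.12 in proestrus, 8.33 ± 0.03 in estrus, 9.82 ± 0.14 in metestrus and 9.17 ± 0.06 in diestrus (SD, n = 3). Metestrus was higher than proestrus by 2.41 ± 0.12 log2 units (SE), or 5.30-fold, and higher than estrus by 1.49 ± 0.12, or 2.80-fold. Diestrus lay 0.65 below metestrus in log2 units, a 1.57-fold difference with an SE of 0.12. The normalized values of the 4 stages did not overlap on this probe in any pair of stages. The raw values of metestrus did not overlap those of estrus or proestrus either, while the raw values of metestrus and diestrus overlapped, the brighter replicate 1 at diestrus lying above replicates 2 and 3 at metestrus.

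The other Serpina1b probe, ILMN_2659680, read 525, 219.6 and 247.4 at proestrus and 1102, 459.1 and 452.7 at estrus. It read 2057, 1077 and 921.3 at metestrus, and 1682, 604.6 and 535.8 at diestrus. Its mean log2 levels were 7.98 ± 0.25, 9.17 ± 0.14, 10.36 ± 0.18 and 9.62 ± 0.44 in that order of stages (SD, n = 3). It had the same order of stages in each replicate number, but its diestrus arrays spread more than on the first probe, from 9.18 in replicate 3 to 10.06 in replicate 1. Metestrus exceeded proestrus by 2.38 ± 0.21 (5.21-fold) and estrus by 1.19 ± 0.21 (2.28-fold). On normalized values the 3 arrays of metestrus were above all of those. On raw values they overlapped estrus, whose replicate 1 read 1102. Diestrus was lower than metestrus by 0.74 ± 0.21 without overlap of the normalized arrays, though the raw values overlapped. The diestrus arrays overlapped those of estrus.

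The Serpina1d probe ILMN_1225570 read 305.9, 178.3 and 170.2 at proestrus and 506.9, 276.9 and 248.9 at estrus. It read 1203, 672.9 and 673 at metestrus, and 729, 379.7 and 449.1 at diestrus. Here too the order was the same in each replicate number, and the normalized arrays of the 4 stages did not overlap.

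Its mean log2 levels were 7.26 ± 0.02, 8.11 ± 0.09, 9.67 ± 0.04 and 8.83 ± 0.09 from proestrus to diestrus (SD, n = 3), with replicates that lay close together at every stage. Metestrus was 2.40 ± 0.11 above proestrus (5.29-fold) and 1.56 ± 0.11 above estrus (2.95-fold), and diestrus was 1.79-fold below metestrus. In raw units metestrus was 3.93, 3.77 and 3.95 times proestrus in replicates 1, 2 and 3, so the difference was of like size on the brighter and the dimmer arrays before any normalization. The probe sequences were not used here, so how much of a probe's signal comes from a neighbouring copy was not tested. The levels of different probes are therefore not set against each other.

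**Figure D1:**
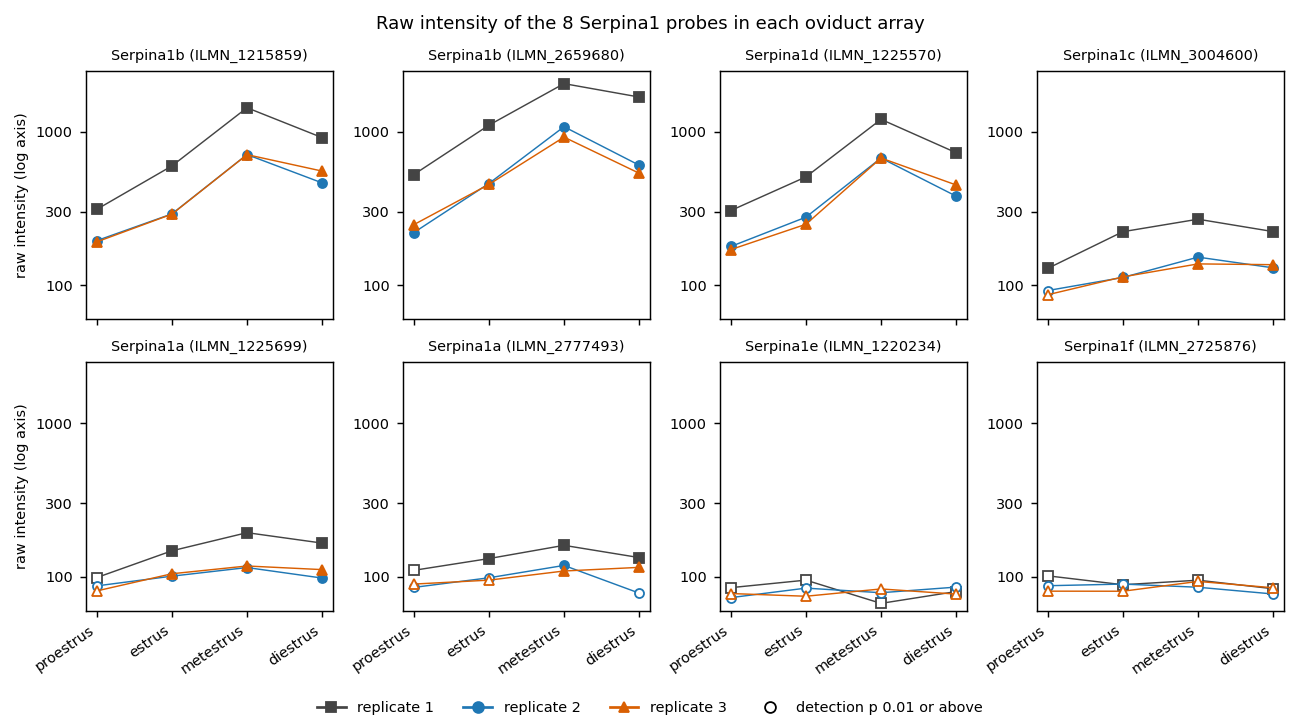
Raw intensity (log axis, arbitrary scanner units) of each of the 8 Serpina1 probes at the 4 stages, with 1 line and marker per replicate number and open markers where the detection p was 0.01 or above. Both Serpina1b probes and the Serpina1d probe peak at metestrus in each replicate number, and the Serpina1e and Serpina1f probes stay at 66.86 to 101.1 with every marker open.

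Serpina1c was ordered the same way, with signals near the detection limit. Its probe ILMN_3004600 read 128.4, 92.04 and 86.44 at proestrus and 222.7, 112 and 113 at estrus. It read 268.6, 152 and 137.3 at metestrus, and 223, 129.4 and 135.7 at diestrus. It was detected on 10 arrays, all but replicates 2 and 3 of proestrus. Metestrus was above proestrus by 1.75 ± 0.16 log2 units and above estrus by 0.68 ± 0.16, with no overlap of the normalized arrays. The first difference is against a level detected on 1 of 3 arrays and was 0.892 without background correction, the second 0.401, so no fold is given. Diestrus was 0.33 below metestrus with an SE of 0.16. No normalized array of diestrus reached the lowest of metestrus, while the raw values overlapped.

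Both Serpina1a probes lay close to background. ILMN_1225699 read 98.5, 86.94 and 80.61 at proestrus, where it was not detected, against 193.3, 114.5 and 117.2 at metestrus, with detection on 8 arrays in all. Its mean log2 levels were 4.78, 5.66, 6.25 and 5.84 from proestrus to diestrus. Metestrus was at least 1.53-fold higher than proestrus, taking as the proestrus level the lowest signal at which probes were detected on those arrays, and the fitted difference was 1.47 ± 0.15, or 0.673 without background correction.

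The other Serpina1a probe, ILMN_2777493, read 109.8, 84.96 and 89.32 at proestrus and 159.8, 118.2 and 108.7 at metestrus. It was detected on 6 arrays, on none at proestrus, and metestrus was at least 1.34-fold higher than proestrus, with a fitted difference of 1.09 ± 0.27, or 0.482 without background correction. At diestrus its arrays read 133, 78.03 and 114.8, and replicate 2 was not detected there. Without that array the diestrus level was 0.32 below metestrus in log2 units, against 0.68 with it, and in replicate 3 diestrus was the higher of the pair. The 2 probes of Serpina1a thus ranked estrus and diestrus differently, diestrus being 0.18 ± 0.15 higher on ILMN_1225699 and 0.01 ± 0.27 lower on ILMN_2777493, both within the spread of the arrays.

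Serpina1e and Serpina1f were not detected on any array. The Serpina1e probe ILMN_1220234 read 66.86 to 94.79 over the 12 arrays, with detection p from 0.118 to 0.912. The Serpina1f probe ILMN_2725876 read 76.98 to 101.1, with detection p from 0.0576 to 0.538. Neither passed the filter of a detection p under 0.01 on at least 3 arrays, and no fold is given for them. A probe that is not well above background bounds the transcript at what the array can see and does not show that it was absent.

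Over the 6 kept probes, the order proestrus, estrus, diestrus, metestrus held on normalized values in all 3 replicate numbers for 5, and in 1 replicate number for the Serpina1a probe ILMN_2777493. On raw values it held in all 3 for 4 probes and in 2 for the Serpina1a probe ILMN_1225699, whose replicate 2 read 100.6 at estrus and 97.78 at diestrus. On normalized values, here and below, 9.64% of all 14778 kept probes had stage means in this order and 0.595% in every replicate number. Every metestrus array was above every proestrus array on 6 of the 6 probes and above every estrus array on 6, against 11.7% and 8.5% of all kept probes. Every estrus array was above every proestrus array on 6 (6.71% of all), and every diestrus array was below every metestrus array on 5 (3.13% of all), the exception being ILMN_2777493. Every diestrus array was above every proestrus array on 5 probes (11.9% of all) and above every estrus array on 3 (8.14% of all). These counts involve the pattern on which the family was selected, and the Serpina1a and Serpina1c probes passed the filter through the stages where they were brighter, so nothing is read from them.

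Among the 10144 genes with 1 probe each, Serpina1d had the third largest metestrus minus proestrus difference and Serpina1b ranked 4, and for metestrus minus estrus they ranked 6 and 14. These ranks use the values on which the family was selected, and nothing is read from them either.

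**Figure D2:**
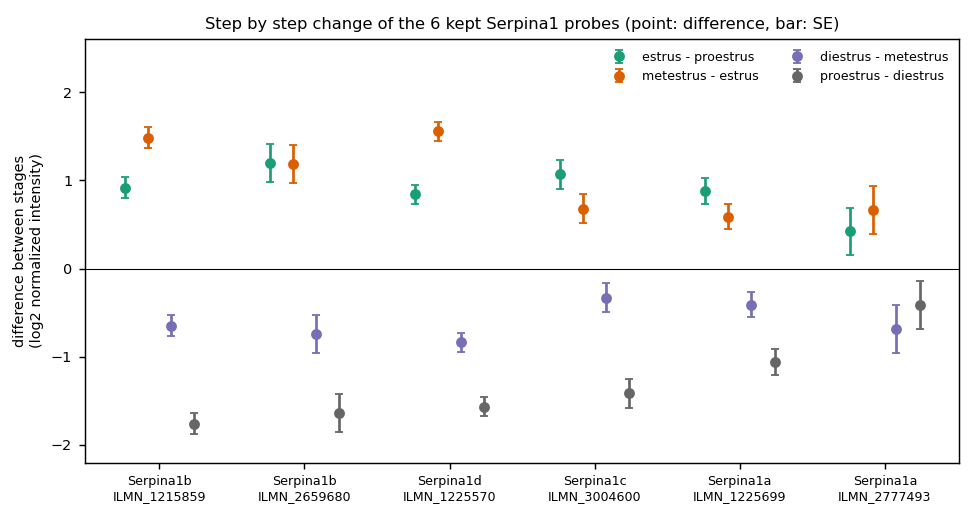
Differences between successive stages of the cycle (log2 normalized intensity) for the 6 kept Serpina1 probes, each point a difference of stage means over 3 arrays and each bar its SE. The steps from proestrus to estrus and from estrus to metestrus lie above 0 on every probe, 1.49, 1.19 and 1.56 for the latter on the Serpina1b and Serpina1d probes, and the steps from metestrus to diestrus and from diestrus to proestrus lie below 0.

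The probes varied together over the arrays. After the mean of each replicate number was subtracted, Pearson's r over the 12 arrays was 0.993 between the Serpina1b probe ILMN_1215859 and the Serpina1d probe, and 0.969 between the Serpina1b probes. The Serpina1a probe ILMN_2777493 followed the others least, with its lowest r, 0.718, against Serpina1c. The arrays share their hybridisation and normalization, and related copies may share signal, so these values are descriptions.

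Cell type markers were read beside the family. The liver markers albumin (Alb), transthyretin (Ttr), Fgb, Ahsg and Cps1 were detected on no array. The remaining liver marker, the apolipoprotein gene Apoa1, was detected on 3 arrays, those of estrus. Other genes of hepatocyte plasma proteins, listed below, were detected more widely or as rarely. Trf and Cyp2e1 were detected on 12 arrays and read 10.17 and 9.37 at metestrus (log2). Hpx was detected on 11 arrays, Rbp4 on 10, and F2 and Fgg on 3 each. The part of liver cells in the result was not tested. The summed normalized intensity of the 6 liver markers, on the linear scale as for the other markers, was 145 to 171 in proestrus arrays and 157 to 249 in estrus arrays. It was 138 to 182 in metestrus arrays and 135 to 168 in diestrus arrays. All 5 macrophage markers on the array were detected on every array, and their sum was 3870 to 3970 in proestrus, 4420 to 4570 in estrus, 4320 to 4840 in metestrus and 4450 to 4630 in diestrus arrays. That sum was lowest at proestrus, where the family was lowest too, but its members did not move together. From proestrus to metestrus, Cd14 went from 10.4 to 10.9 and Lyz2 from 10.38 to 10.6 (log2). Mrc1 went from 9.27 to 9.04, Cd163 from 7.09 to 6.85 and Adgre1 from 8.84 to 8.88. The part of macrophages in the result was not tested.

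The sum of the 11 neutrophil markers was 32900 to 40800 in proestrus, 41800 to 50000 in estrus, 44700 to 61600 in metestrus and 44800 to 49100 in diestrus arrays, and most of it was lactoferrin (Ltf), which epithelium also makes. Mmp8 and Cxcr2 were not detected on any array. Most detected markers of the list had lower stage means at metestrus than at estrus. From estrus to metestrus, S100a8 went from 10.16 to 9.01, S100a9 from 8.70 to 7.42 and Camp from 6.5 to 5.57 (log2). Mpo went from 6.24 to 5.61, Elane from 6 to 5.31, Ngp from 5.72 to 5.17 and Retnlg from 6.55 to 6.3. Among detected markers only Ltf, from 15.43 to 15.62, and Csf3r, from 5.52 to 5.72, were higher at metestrus. The part of these cells in the result was not tested. The secretory epithelium markers Ovgp1 and Pax8 summed to 28900 to 47000 at proestrus and 29300 to 57200 at metestrus, overlapping ranges.

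The remaining genes around alpha-1-antitrypsin biology were read from 7 lists written from general knowledge, 130 entries in all, and tested with limma over all 10144 genes with Benjamini-Hochberg adjustment at a threshold of 0.05. Of the genes listed, 69 were tested, and 10 changed across the cycle by the moderated F test, against 5.37% of all tested genes (545). The metestrus minus estrus step, at which Serpina1b and Serpina1d were higher, called 0 of the 69 list genes higher and 6 lower, against 0.69% of all genes higher (70) and 1.77% lower (180). At an unadjusted p under 0.05, 1 list gene was higher and 14 were lower, but no count over all genes was made at that threshold, so nothing is read from these. The diestrus minus metestrus step called 0 list genes, against 0.069% of all genes (7). At an unadjusted p under 0.05 it held 2 of the 69 list genes and 306 of all 10144 genes. The fit with the replicate number as a block called 1 list gene and 30 of all genes at this step. With the replicate number as a block, 25 of the 69 changed across the cycle, where 16.4% of all genes did (1659), and 2 were higher and 14 lower at metestrus than at estrus, where 372 and 475 of all genes were. The median metestrus minus estrus difference of all genes was 0.02 log2 units.

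The acute-phase list holds genes linked to inflammation, many of them for proteins that liver secretes. It also holds the coreceptor gene Cd14 and the metallothionein genes Mt1 and Mt2, whose proteins are not of that kind. Of 14 tested, 4 changed across the cycle, 3 of them lower at metestrus than at estrus, and the list's median metestrus minus estrus difference was -0.37. Lipocalin 2 (Lcn2), which binds bacterial siderophores, fell by 1.50 log2 units from estrus to metestrus (SE 0.16, adjusted p = 0.00029), haptoglobin (Hp), which binds free haemoglobin, by 0.90 (SE 0.16, adjusted p = 0.011) and Serpina3n, the alpha-1-antichymotrypsin relative, by 0.87 (SE 0.15, adjusted p = 0.0075). The monocyte coreceptor for lipopolysaccharide, Cd14, changed across the cycle (limma F test, adjusted p = 0.044) with its lowest level, 10.40, at proestrus, and leaving out any array other than replicate 1 of metestrus ended that call, with adjusted p from 0.066 to 0.18. The metestrus call of Hp was lost without replicate 2 (adjusted p = 0.063) or replicate 3 (0.064) of estrus. Members with a positive metestrus minus estrus difference, Cd14 included, did not pass at that step in the main test. Among them were the copper-binding ceruloplasmin gene Cp (0.61 ± 0.30), the lipopolysaccharide-binding protein gene Lbp (0.54 ± 0.23) and the metallothionein gene Mt1 (0.21 ± 0.16, SE). The blocked fit called 10 of the 14 across the cycle, and 2 higher and 6 lower at metestrus than at estrus.

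The liver list otherwise had 7 tested genes, 1 of which changed. Cyp2e1, a cytochrome P450 that oxidises ethanol, was 10.50 ± 0.25 at estrus and 9.37 ± 0.10 at metestrus (SD, n = 3) and fell by 1.13 between them (SE 0.16, limma adjusted p = 0.0018), while the list's median difference was 0.05. At diestrus it read 10.29 ± 0.22, a difference of 0.92 from metestrus that did not pass (SE 0.16, limma adjusted p = 0.085). With the block 3 of the 7 changed across the cycle, and 1 was called between metestrus and diestrus.

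Within the clade A serpins of the same chromosomal cluster, 3 of 18 listed genes were tested and 2 changed, both lower at metestrus than at estrus, with a list median of -0.87. Serpina5, the protein C inhibitor, fell by 1.53 from estrus to metestrus (SE 0.21, limma adjusted p = 0.0022), from 7.04 to 5.50, the opposite direction to the Serpina1 probes. Its metestrus level lay within the range of the lowest detected signals of those arrays (5.155 to 5.806), and the difference was -0.83 without background correction, -1.05 with an offset of 50 and -2.36 on the deposited values, passing each time. Serpina3n, also in the acute-phase list, was the other. Serpina9 did not pass (F test, limma adjusted p = 0.21, or 0.034 with the block) and read 7.16, 6.73, 6.45 and 6.70 from proestrus to diestrus.

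The ovarian markers on the array, 6 genes, summed to 1610 to 1770 at estrus against 272 to 544 over the other stages, and the 9 oocyte markers to 1560 to 2000 at estrus against 348 to 925, and the 6 adipocyte markers on the array to 1570 to 1620 at estrus against 945 to 1480. All 3 sums were highest at the stage where Lcn2, Serpina3n, Serpina5 and Cyp2e1 were highest. Of the adipocyte list, Adipoq read 9.27, 10.19, 9.77 and 9.98 from proestrus to diestrus, and Plin1, Fabp4 and Retn were detected on no array. The part of any of these cells in those differences was not tested. Serpina1b and Serpina1d were not highest at estrus.

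The protease list was written around targets of alpha-1-antitrypsin and its relatives, and also holds the metalloproteinase genes Mmp9 and Adam17. Of its 12 tested genes, 2 changed across the cycle and 6 did with the block. The list's median metestrus minus estrus difference was -0.27. Plau, the urokinase plasminogen activator, fell by 0.92 from estrus to metestrus (SE 0.19, limma adjusted p = 0.023). The difference was -0.57 without background correction. The call was lost without any 1 of the 3 estrus arrays or replicate 1 of metestrus, with adjusted p up to 0.11, and its call across the cycle without replicate 2 or 3 of proestrus or of estrus, with adjusted p up to 0.066. Klk1, tissue kallikrein, was 9.58 ± 0.05 at proestrus and 8.75 ± 0.20 at diestrus (F test, limma adjusted p = 0.023), and its call ended without any 1 of the 3 proestrus arrays, replicate 2 of estrus or replicate 2 or 3 of diestrus, with adjusted p up to 0.097. Neutrophil elastase (Elane), the main target of the inhibitor, did not pass (F test, limma adjusted p = 0.39, or 0.024 with the block), was detected on 5 arrays and read 6.00 at estrus and 5.31 at metestrus.

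Of 12 regulators of Serpina1 transcription and upstream signals tested, 1 changed across the cycle, with and without the block, and the median metestrus minus estrus difference was 0.04. That gene, Foxa3, a forkhead factor of endoderm, read 8.43 ± 0.27, 8.15 ± 0.29, 7.23 ± 0.35 and 7.12 ± 0.33 from proestrus to diestrus (F test, limma adjusted p = 0.0078). Its estrus to metestrus difference of -0.92 did not pass (limma adjusted p = 0.068) but did with the block (0.00046). Hnf4a, a nuclear receptor of hepatocytes, and Stat3, which carries interleukin 6 signals, read 5.93 to 6.09 and 10.80 to 10.94 over the stage means without passing.

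Genes for the folding, export and degradation of secreted proteins had 18 tested members, of which 1 changed across the cycle and 3 did with the block, and a median metestrus minus estrus difference of 0.02. Syvn1, the ubiquitin ligase of endoplasmic reticulum degradation, was 12.67 at proestrus and 13.34 at metestrus (F test, limma adjusted p = 0.021), and leaving out any 1 of the 3 proestrus arrays ended the call, with adjusted p from 0.072 to 0.10. Of 4 tested genes for receptors that clear serpin complexes, limma called 0 across the cycle, 0 also with the block or at an unadjusted p under 0.05. The clearance receptor gene Lrp1 read 7.30, 7.30, 7.47 and 7.35 from proestrus to diestrus, and Lrpap1, its chaperone, 13.25 to 13.52. On the values deposited by the authors, of the list genes called across the cycle only Serpina5 passed.

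**Figure D3:**
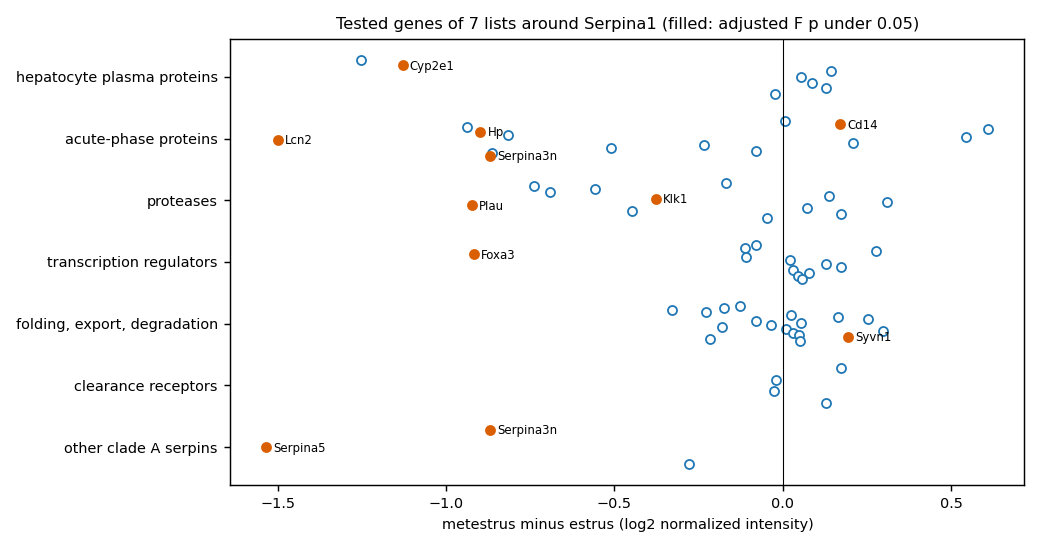
Metestrus minus estrus difference (log2 normalized intensity) of each tested gene of the 7 lists, with 1 row of points per list and filled, named points for genes changed across the cycle at an F test adjusted p under 0.05. Serpina5 and Lcn2 lie farthest to the left at -1.53 and -1.50, and the called genes to the right of 0 are Cd14 and Syvn1 at 0.17 and 0.19.

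Genes whose pattern over the arrays was most like that of Serpina1b were sought with ILMN_2659680, the family's probe of highest mean log2 level, taken by rule as the reference, over 1946 genes outside the family whose stage means spanned at least 0.5 log2 units. The measure was Pearson's r over the 12 arrays after the mean of each replicate number was subtracted. The 10 highest were Cbx7 (0.980), Olfml1 (0.979), Slc7a8 (0.978), Fmo1 (0.978), Rgs9 (0.977), Vasn (0.977), Kcnc4 (0.973), Car11 (0.969), Tbx3 (0.968) and Rasl12 (0.962). Their stage means spanned 0.60 to 1.62 log2 units, less than the 2.38 of the reference. Olfml1, Kcnc4, Car11, Tbx3 and Rasl12 did not change across the cycle in the main fit (F test, limma adjusted p from 0.1 to 0.28).

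Slc7a8, a transporter of neutral amino acids, kept its likeness without the subtraction, with r = 0.978, and read 7.29 ± 0.10, 7.70 ± 0.08, 7.93 ± 0.03 and 7.79 ± 0.12 from proestrus to diestrus (SD, n = 3). Cbx7, a Polycomb group protein, read 7.58 ± 0.23, 7.99 ± 0.11, 8.47 ± 0.14 and 8.25 ± 0.13, and its r was 0.844 without the subtraction. Rgs9, a regulator of G protein signalling, had the widest range of the 10, from 7.79 ± 0.60 at proestrus to 9.41 ± 0.38 at metestrus, and its SDs were 0.38 to 0.60 over the stages.

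The 5 genes most opposed to the reference were Ctse (r = -0.983), Tpd52l1 (-0.977), Mcoln2 (-0.966), Uroc1 (-0.964) and Enc1 (-0.964). Of these, Tpd52l1 and Enc1 did not change across the cycle in the main fit (F test, limma adjusted p = 0.29 and 0.14). Ctse, the aspartic protease cathepsin E, read 8.86 ± 0.06, 8.24 ± 0.14, 7.59 ± 0.16 and 8.03 ± 0.18 from proestrus to diestrus. Uroc1, urocanase of histidine breakdown, spanned 8.18 ± 0.04 at proestrus to 6.51 ± 0.39 at metestrus. All arrays share their stage labels and normalization, and genes were ranked out of 1946, so high values of r describe the top of a ranking. Of the 10 most alike, 1 was also among the 10 without the subtraction, 1 with Spearman's correlation and 4 over replicates 2 and 3 alone, so the ranking depends on how likeness is measured.

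**Figure D4:**
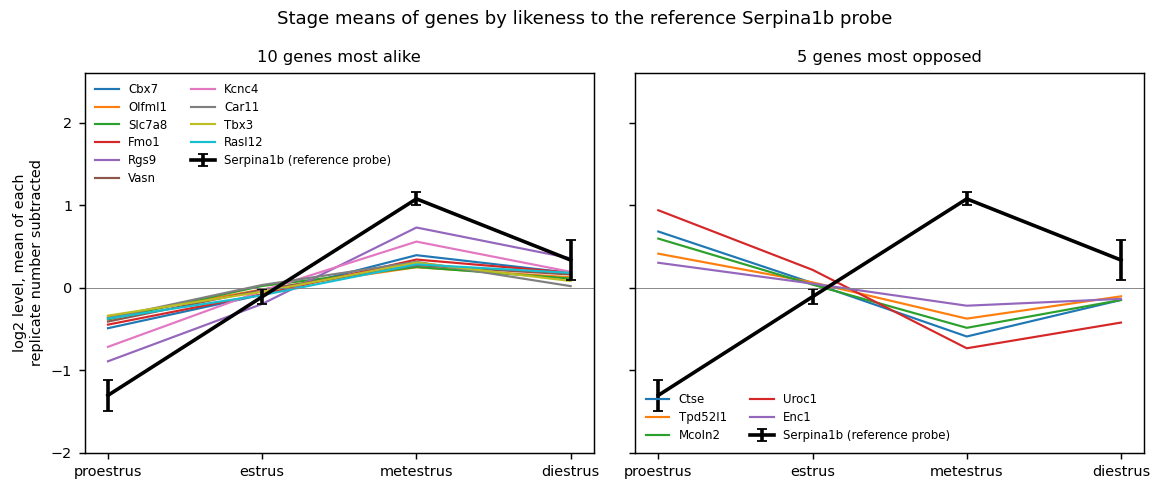
Stage means of the log2 level after the mean of each replicate number was subtracted, for the 10 genes most alike (left) and the 5 most opposed (right) to the reference Serpina1b probe, drawn in black with bars of 1 SD over 3 arrays. The reference spans 2.38 log2 units from proestrus to metestrus, wider than any of the 15 genes.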

How the data were processed

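Intensity values and detection p-values came from a table of the authors' raw probe values, 2 columns per array per the file headers. The values have no background subtracted (lowest 52.29 to 57.93 per array). A deposited matrix holds the authors' processed intensity on a linear scale, background-subtracted and quantile normalized apart for replicate 1 and for replicates 2 and 3, as read from the values. On replicates 2 and 3 the ranks of the probes also differ from the raw ones (rank correlation 0.971 to 0.972, against 1 on replicate 1). The step that changed them is not known. No source used here names the software.

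Then limma 3.58.1 (R 4.3.3) was run on the raw intensities: neqc corrects them by normexp, taking the detection p-values as its guide to the negative controls, then makes the distributions of the 12 arrays equal by quantiles and takes log2 after adding 16. Probes with a detection p under 0.01 on at least 3 of 12 arrays were kept, 14778 of 25697, and the brightest probe stood for each of 10144 genes. Symbols came from the platform annotation, updated to the RefSeq symbol where the gene identifier matched (23978 probes with 1, 1719 with none). A fit with 1 mean per stage (lmFit, eBayes, 8 residual degrees of freedom) gave differences, SE and Benjamini-Hochberg adjusted p, and was tested on simulated data. The number of arrays limits the precision.

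The members, the gene lists and the rule for named genes were chosen with earlier results of these data known. The rule named every Serpina1 probe, the 10 genes most alike and 5 most opposed to the one of highest mean level, and up to 4 called genes of each list with the lowest F p (2 where none was called). Apoa1, Trf, Hpx, Rbp4, F2, Fgg, Serpina9, Elane, Cp, Lbp, Mt1, Hnf4a, Stat3, S100a8, S100a9, Camp, Mpo, Ngp, Retnlg, Ltf, Csf3r, Lyz2, Mrc1, Cd163, Adgre1 and Adipoq were named after their values were seen.

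Replicate numbers come from the labels, which do not say what they share. After removal of stage means, arrays of the same number correlated at 0.62 to 0.81 (replicate 1), 0.26 to 0.51 (replicate 2) and 0.36 to 0.55 (replicate 3). Between replicates 2 and 3 the values were 0.22 to 0.54, so replicate 1 stood apart while numbers 2 and 3 were not told apart. The main fit is unpaired, and its SE and p-values take no account of the replicate number. The fit with the replicate number as a block is given beside counts it moves. The alternatives were no background correction, an offset of 50, the deposited values (floor 16), other detection filters, the mean of a gene's probes, the block, the array sets apart, other measures of likeness and leaving out each array.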

Additional observations from a re-analysis of the deposited data

How the results depend on the processing

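All 18 member differences examined (metestrus minus proestrus, metestrus minus estrus and diestrus minus metestrus on 6 probes) kept their direction in every setting that gave them, but not their size. For Serpina1b ILMN_1215859, metestrus minus proestrus was 2.04 without background correction, 2.20 with an offset of 50, 2.63 on the deposited values, 2.26 on replicates 2 and 3 and 2.70 on replicate 1; metestrus minus estrus was 1.32 without background correction, 1.73 on the deposited values and 1.64 on replicate 1; diestrus minus metestrus was -0.541 on replicates 2 and 3 and -0.858 on replicate 1. For Serpina1d, metestrus minus proestrus was 2.0, 2.17 and 2.70 without background correction, with an offset of 50 and on the deposited values; metestrus minus estrus was 1.36, 1.45 and 1.73 under these and 1.65 on replicate 1; diestrus minus metestrus was -0.754 without background correction, -0.915 on the deposited values and -0.955 on replicate 1. Leaving out single arrays gave 2.33 to 2.46, 1.41 to 1.54 and -0.701 to -0.571 for that Serpina1b probe and 2.39 to 2.43, 1.53 to 1.61 and -0.877 to -0.792 for Serpina1d. Near background the size depended on the correction: without it and with an offset of 50, metestrus minus proestrus was 0.673 and 0.841 on Serpina1a ILMN_1225699, 0.482 and 0.624 on ILMN_2777493, and 0.892 and 1.14 on Serpina1c, and metestrus minus estrus was 0.288 and 0.380, 0.304 and 0.407, and 0.401 and 0.497. Diestrus minus metestrus on these 3 probes was -0.205, -0.313 and -0.207 without the correction, and -0.67 on ILMN_1225699 on the deposited values. The replicate block left the 18 differences as they were, which was fixed in advance because every stage has the same replicate numbers. That setting therefore does not test them.

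Counts of called genes moved more. Across the cycle 545 genes were called, 66 on the deposited values, 1659 with the replicate block and 1082 on replicates 2 and 3. Leaving out single arrays gave 345 (without replicate 2 of proestrus; 351 without replicate 3) to 664. Metestrus against estrus called 250, and 53, 847 and 475 under the same 3 settings, with 147 (without replicate 2 of estrus; 152 without replicate 3) to 247 over single arrays. Diestrus against metestrus called 7, 30 with the block, and 0 by limma on the deposited values, where 52 genes had an unadjusted p under 0.05; single arrays gave 1 (without replicate 2 of metestrus or of diestrus) to 13 (without replicate 1 of metestrus), with 2 without replicate 1 or 3 of diestrus and 4 without replicate 3 of metestrus. Of the 69 list genes 10 were called, 1 on the deposited values, 25 with the block, 20 on replicates 2 and 3, and 6 (without replicate 2 or 3 of proestrus) to 12 over single arrays. The cause of these moves was not tested. Signal close to background limits what the Serpina1a, Serpina1c, Serpina1e and Serpina1f probes can show.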
